A study of Mus musculus with 168 samples.

Results

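The genes described here are the microtubule motors of kinesin, cytoplasmic dynein and dynactin. They were chosen by symbol alone: Kif or Klc or Dctn followed by a digit, or Dync. The rule found 56 of the 39410 rows of the expression table. Of these, 39 had kinesin heavy chain symbols (Kif, 2 of them pseudogenes), 4 were kinesin light chains (Klc), 7 dynein chains (Dync) and 6 dynactin subunits (Dctn). By known role, 30 were put under axonal transport, 12 under mitotic kinesins, 9 under ciliary motors or their regulators and 3 under other kinesins (Kif2a, Kif26a and Kif26b). The remaining 2 were the pseudogenes Kif22-ps and Kif4-ps, and Kif4-ps was at 0 in every library. Other dynein light chains, other dynactin subunits and adaptors have symbols outside the rule and are given only as a list of 55 partner genes.

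Kinesins carry cargo along microtubules, mostly toward the axon terminal, and cytoplasmic dynein, activated by dynactin, carries cargo back to the cell body. Motor neurons depend on both because their axons are long, and changes in several of these genes cause inherited diseases of motor neurons. A separate group of kinesins builds and moves the mitotic spindle, and is mostly at work in dividing cells.

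RNA came from neurons cut by laser out of frozen, stained brain and spinal cord sections of delta7 mice, a model of spinal muscular atrophy (SMA), and from littermate controls. The SMA mice were Smn-/- with SMN2+/+ and SMNΔ7+/+, and the controls were Smn+/+ with the same SMN2 and SMNΔ7 transgenes, so both genotypes carried the human transgenes and the loss of Smn was in every cell. Motor neurons of 5 origins were sampled at postnatal days 2, 5 and 10: ocular (oculomotor and trochlear nuclei, in some libraries 1 of these nuclei alone), facial, vagus, hypoglossal and lumbar spinal cord. Per the labels, ocular libraries of 1 nucleus alone were among the controls of days 5 and 10 and the SMA samples of day 10. At day 2, and in SMA samples of day 5, all ocular libraries held both nuclei. Neurons of the red nucleus, which are not motor neurons, were the last population. The 168 libraries, of about 150 pooled cells each, made 160 samples of mouse and population (72 control, 88 SMA) from 15 control and 19 SMA mice, with 3 to 7 mice in each of the 36 groups of population, genotype and day.

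Recovered depth was 0.342 to 16.3 M reads per library with a median of 5.89, and the shallowest library was a day 10 red nucleus control, mouse 252. Smn1 was 26.7 ± 12.6 RPKM (SD, n = 72) in controls and 0.257 ± 0.725 (SD, n = 88) in SMA samples, where 70 of 88 were at 0. The motor neuron marker Chat averaged 20.2 to 34.0 RPKM in the 5 motor populations and 0.18 in the red nucleus, where Pou4f1 averaged 227.8. Markers of other cells were also present: over the 72 control samples the summed RPKM of 6 oligodendrocyte markers ran from 16.9 to 1176, of 6 astrocyte markers from 21.2 to 108, of 6 microglia markers from 0.0557 to 68.4 and of 5 vessel markers from 0 to 30.0. RPKM is read count divided by gene length and library depth, which puts genes of differing length on 1 scale. The annotation behind the lengths is not given, so orders of level between genes are approximate. In pooled samples fewer cells of a type and less RNA per cell cannot be told apart.

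The transport motors were expressed far above the mitotic kinesins. Of the 30 transport genes, 28 had a mean of at least 1 RPKM over the 72 control samples and 22 a mean of at least 10, with a median of 50.2 between genes. Of the 12 mitotic kinesins, 11 had a mean under 1 RPKM, and Kif22 was the exception at 10.8 ± 8.12 (SD, n = 72). Among the 9 ciliary genes, 3 had a mean of at least 1 RPKM.

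Kinesin-1 joins heavy and light chains and is the main carrier of fast transport toward the terminal. Klc1, its chief neuronal light chain, was the most abundant motor gene at 459 ± 98.4 RPKM (SD, n = 72). Klc2 was at 19.6 ± 9.30, Klc4 at 11.7 ± 5.16, and Klc3 was at 0 in 133 of 160 samples, so Klc1 made up 93.6% ± 1.7 (SD, n = 72) of the summed light chain RPKM in controls. Of the heavy chains, the neuron-specific Kif5c (89.2 ± 17.1 RPKM) and Kif5a (79.7 ± 14.9) were several times higher than the widely expressed Kif5b (21.5 ± 9.35), a pattern held in every population. Kif5a lies at chr10:127225696-127263348 (GRCm38, GENCODE M21), next to the dynactin gene Dctn2 at chr10:127266368-127281950.

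The kinesin-3 motors Kif1a and Kif1b carry synaptic vesicle precursors and mitochondria, and stood at 93.4 ± 23.8 and 60.5 ± 8.03 RPKM (SD, n = 72). Other kinesin-3 genes were lower, from Kif13a at 3.11 to Kif13b at 0.270. Kif3a, a kinesin-2 subunit, was at 53.5 ± 13.5 RPKM, above its partners Kif3b (12.2 ± 4.44) and Kif3c (8.57 ± 3.97). The neuronal kinesin-4 genes Kif21a and Kif21b stood at 36.05 ± 10.12 and 6.99 ± 5.22 RPKM.

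The 5 cytoplasmic dynein 1 chains under the rule were all abundant. The light intermediate chain Dync1li1 was highest at 155.8 ± 43.1 RPKM (SD, n = 72), followed by the intermediate chains Dync1i2 (139 ± 54.8) and Dync1i1 (67.9 ± 18.8), then Dync1li2 (53.2 ± 14.6) and the heavy chain Dync1h1 (47.1 ± 16.5). Dynactin subunits spread more widely. Dctn6 stood at 336 ± 101.1 RPKM, Dctn3 at 225.1 ± 50.7, Dctn4 at 197.8 ± 73.3, Dctn2 at 191.8 ± 40.1 and Dctn5 at 119.4 ± 40.4, whereas Dctn1, which encodes the large p150 subunit that binds dynein, was at 29.0 ± 14.1. The order between Dctn4 and Dctn2, and between Kif1a and Kif5c, lay within their spread over samples.

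**Figure D1:**
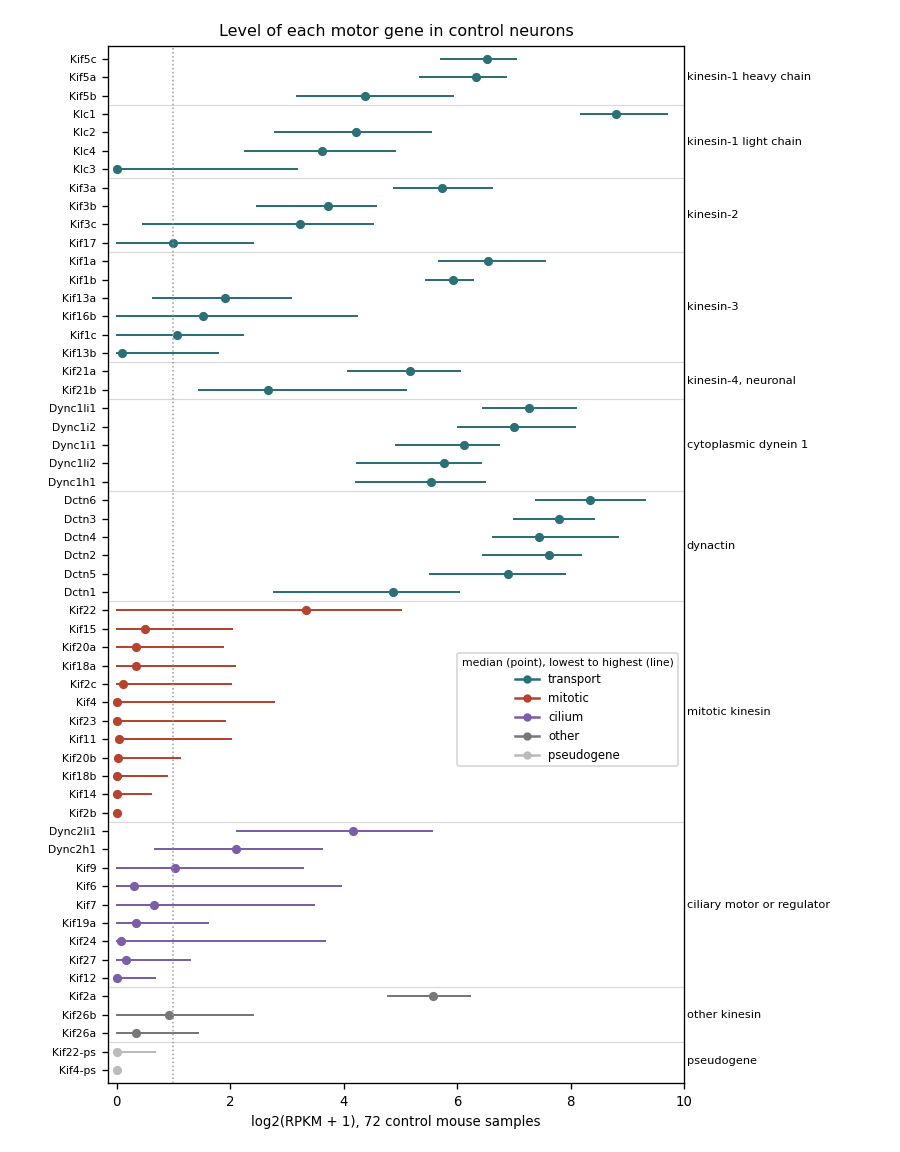
Level of all 56 rows found by the rule, 2 of them pseudogenes, in the 72 control mouse samples as log2(RPKM + 1). Points are medians, lines run from the lowest to the highest sample, and the dotted line marks 1 RPKM. Genes are grouped by role, and Kif22 is the only mitotic kinesin whose median lies above that line.

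The mitotic kinesins other than Kif22 were low. Kif15 averaged 0.563 RPKM over the 72 control samples, Kif20a 0.517, Kif18a 0.472, Kif2c 0.455, Kif4 0.361, Kif23 0.286, Kif11 0.273 and Kif20b 0.164. Over all 160 samples Kif23 was at 0 in 77 and Kif11 in 65, and Kif2b was above 0 in 1 of them. For Kif11, the motor that pushes spindle poles apart, 3 reads amount to 0.0682 RPKM in a library of median depth and 1.18 in the shallowest. Kif15 was at 0 in 13 of the 160 samples, and 3 reads of it amount to 0.0462 RPKM at median depth, well under its mean. Among 16 markers of dividing cells, summed RPKM in the same samples had a lowest, median and highest value of 3.91, 21.8 and 49.4. Kif20a overlaps Cdc23 and Kif4 overlaps Pdzd11 on the opposite strand, and Pdzd11 averaged 48.8 RPKM. Whether the counting used strand is not given in the sources used here, so low values of these 2 genes cannot be assigned.

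Kif22 encodes a chromosome-binding kinesin of the spindle and is at chr7:127027729-127042471 on the minus strand. In controls its lowest, median and highest RPKM were 7.70, 20.4 and 31.2 in hypoglossal neurons (n = 12), 11.4, 13.7 and 27.3 in lumbar (n = 13), 2.08, 12.6 and 23.1 in facial (n = 13) and 1.56, 7.15 and 14.2 in ocular neurons (n = 12). They were 1.79, 3.21 and 6.06 in vagus (n = 11) and 0, 3.19 and 9.36 in red nucleus neurons (n = 11). Every hypoglossal and lumbar value lay above every vagus value. Kif22-ps, a pseudogene on chromosome 1, averaged 0.0432 RPKM. The gene Gm31749 is annotated within Kif22 on the opposite strand.

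Promoters of the mitotic kinesins are shown because cell-cycle promoters are known to carry a CCAAT box and a CHR element (TTTGAA). Through the CHR, repressor complexes hold these genes low in resting cells. RefSeq promoters (GRCm38.p6, 250 bases before to 50 after the start) were found for 43 members. TTTGAA, sought on both strands as TTTGAA or TTCAAA, was in 9 of 11 mitotic promoters (81.8%), in 2 of 26 transport promoters (7.69%), in 1 of 8 ciliary promoters (12.5%) and in 17.9% of 32851 mouse promoters of the same length. CCAAT, sought as CCAAT or ATTGG, was in 7 of 11 mitotic (63.6%), 9 of 26 transport (34.6%), 4 of 8 ciliary and 37.4% of all promoters. The motifs do not overlap in the sequences below, which run 5′ to 3′ on the gene's strand with matches in capitals. Kif22, the expressed member, held both motifs, with 2 matches to each, as did the near-silent Kif11 and Kif23 with 1 match to each. The Kif22 window is chr7:127042371-127042670 (minus strand), that of Kif11 chr19:37376132-37376431 (plus) and that of Kif23 chr9:61946750-61947049 (minus).
Kif22: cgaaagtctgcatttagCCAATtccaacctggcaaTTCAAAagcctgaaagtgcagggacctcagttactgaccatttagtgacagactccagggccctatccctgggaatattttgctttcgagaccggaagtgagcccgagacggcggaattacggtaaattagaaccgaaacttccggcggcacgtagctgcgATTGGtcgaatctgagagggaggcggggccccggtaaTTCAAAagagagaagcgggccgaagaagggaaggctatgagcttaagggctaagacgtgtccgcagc
Kif11: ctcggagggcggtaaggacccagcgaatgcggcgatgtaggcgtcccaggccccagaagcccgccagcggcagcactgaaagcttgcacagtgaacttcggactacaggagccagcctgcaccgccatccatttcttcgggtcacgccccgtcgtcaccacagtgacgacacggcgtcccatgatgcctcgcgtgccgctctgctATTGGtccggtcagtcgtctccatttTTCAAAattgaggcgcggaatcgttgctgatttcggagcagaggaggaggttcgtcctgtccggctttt
Kif23: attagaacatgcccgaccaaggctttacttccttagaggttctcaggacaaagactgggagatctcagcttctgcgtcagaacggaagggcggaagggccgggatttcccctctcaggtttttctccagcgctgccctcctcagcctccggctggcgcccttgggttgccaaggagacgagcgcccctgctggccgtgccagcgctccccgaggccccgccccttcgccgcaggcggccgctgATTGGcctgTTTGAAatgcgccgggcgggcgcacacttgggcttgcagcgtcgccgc
For contrast, the neuronal dynein gene Dync1i1, whose level changed with day and population (below), held neither motif in its window at chr6:5725389-5725688 (plus strand).
Dync1i1: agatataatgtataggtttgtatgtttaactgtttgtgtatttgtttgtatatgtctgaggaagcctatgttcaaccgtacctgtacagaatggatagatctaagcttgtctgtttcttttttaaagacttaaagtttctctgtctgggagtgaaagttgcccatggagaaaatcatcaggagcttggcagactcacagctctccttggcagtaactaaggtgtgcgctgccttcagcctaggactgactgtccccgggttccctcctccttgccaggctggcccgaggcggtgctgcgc
A match is a run of letters and not evidence that a factor binds there.

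Ciliary motors were mostly low. Dync2li1 and Dync2h1, subunits of the dynein that moves cargo inside cilia, averaged 19.1 ± 9.40 and 3.92 ± 2.41 RPKM (SD, n = 72), and Kif9 averaged 1.496 ± 1.63. The other 6, including Kif7, which regulates hedgehog signalling in the cilium, averaged under 1 RPKM. Kif2a, a kinesin that takes microtubules apart at their ends, was at 47.9 ± 11.9 RPKM, and Dimt1, which partly overlaps it on the opposite strand, averaged 6.38.

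Populations differed in their levels of motor genes. In controls each population was compared with the mean of the other 5 over the 3 days, with limma on log2(RPKM + 1), the mouse as a block and a threshold of adjusted p 0.05. The test was open to 48 members, and 27 passed in at least 1 population, making 52 calls in 288 tests. At an unadjusted p under 0.05, 28.8% of member tests passed, beside 28.1% over all genes, so the motors as a group differed between populations about as often as other genes. Control mice gave several populations each, and the populations share these comparisons.

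Lumbar motor neurons, which the study includes as a vulnerable group, had 7 members higher and 5 lower, beside 9.83% and 9.11% of the 19621 genes tested. Kif5c had a lowest, median and highest RPKM of 90.8, 104.7 and 129.9 in lumbar samples (n = 13). In vagus samples (n = 11), where Kif5c was called lower (below), they were 51.7, 60.4 and 72.5, without overlap. Over all 72 control samples the median was 91.7, above the lowest lumbar value, so lumbar samples overlapped those of other populations. The lumbar difference from the other 5 was 0.37 for Kif5c (SE 0.05, limma adjusted p = 1.4e-07) and 0.38 for Dync1i1 (SE 0.08, adjusted p = 0.000424). Kif22 was higher by 1.14 (SE 0.21). On the low side were Dync1i2 (−0.67, SE 0.09, adjusted p = 7.7e-08), Dync2li1 (−0.71, SE 0.17) and Dync2h1 (−0.61, SE 0.16). Dync1i2 ran from 68.6 through 92.7 to 112.8 RPKM in lumbar and from 121.96 through 216 to 258.7 in vagus samples, again without overlap. Vagus was called higher for Dync1i2 (below), and red nucleus controls of day 10 at 76.2, 76.3 and 84.8 RPKM lay within the lumbar range. For these and other gaps between groups, the share of all genes with such a gap was not counted. Of the dividing-cell genes 2 of 15 tested, Pbk and Ccnb1, were also higher in lumbar samples, as were 3 of 6 astrocyte and 2 of 4 oligodendrocyte precursor markers. The vessel marker Rgs5 (2.20) and the oligodendrocyte marker Mbp (0.90) were higher too, and the microglia marker Aif1 was lower (−1.09). The part of these cells in the motor differences was not tested.

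Vagus motor neurons had the most calls, 7 higher and 7 lower, where 16.0% of all genes were higher and 12.5% lower. Lower on the log2 scale were Kif5c (−0.59, SE 0.06, limma adjusted p = 2.5e-13), Klc2 (−0.74, SE 0.18) and Kif22 (−1.21, SE 0.23). Higher were the ciliary dynein genes Dync2li1 (0.80, SE 0.19) and Dync2h1 (0.74, SE 0.18) and the intermediate chain Dync1i2 (0.66, SE 0.10). Dync2li1 ran from 14.5 through 29.5 to 41.2 RPKM in vagus and from 3.38 through 11.4 to 27.7 in lumbar samples, which overlapped. Of the partner genes, Dynlrb2, a light chain of the roadblock family, was higher in vagus neurons by 1.90 (SE 0.33). Vagus samples also had 5 of 6 oligodendrocyte markers lower and 1 higher, 3 of 6 astrocyte and 3 of 6 microglia markers higher and 2 of 4 precursor markers lower, and the part of these cells was not tested.

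Red nucleus neurons had 9 members higher and 2 lower (9.13% and 13.5% of all genes). Kif21b, a kinesin-4 that pauses microtubule growth, had a lowest, median and highest RPKM of 4.71, 17.5 and 33.5 there (n = 11), while no motor population had a sample above 9.80. The difference was 1.40 (SE 0.14, limma adjusted p = 5.1e-12). Kif1a (0.41, SE 0.09), Dync1i2 (0.44, SE 0.10) and Dync1i1 (0.39, SE 0.09) were also higher. Kif22 (−1.64, SE 0.23) and Dync1li2 (−0.57, SE 0.09) were lower. Red nucleus samples had 3 of 6 astrocyte and 3 of 5 vessel markers lower.

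Hypoglossal neurons had 2 members higher, Kif22 by 1.49 (SE 0.22, limma adjusted p = 2e-07) and Kif7 by 0.84 (SE 0.18), and 5 lower, led by Klc4 (−0.61, SE 0.16), Kif21b (−0.40, SE 0.14) and Kif1a (−0.33, SE 0.09), where 7.37% of all genes were higher and 3.94% lower. Kif7 remained low there, with a lowest, median and highest RPKM of 0, 1.74 and 10.09. Facial neurons had no member higher and 1 lower, Dync1i1 (−0.54, SE 0.08, adjusted p = 1.4e-06), beside 6.13% and 3.59% of all genes. Ocular neurons had only Kif5c higher (0.18, SE 0.05) and 6 lower, beside 8.01% and 10.4%. The lower genes included the dynactin subunits Dctn2 (−0.46, SE 0.07), Dctn5 (−0.44, SE 0.14) and Dctn3 (−0.32, SE 0.09), Kif5a (−0.21, SE 0.06) and the ciliary Kif9 (−0.53, SE 0.20). Ocular samples had 2 of 6 oligodendrocyte markers and the astrocyte marker Slc1a2 (0.41) higher. The astrocyte marker Gfap (−1.44) and the precursor marker Pdgfra (−0.61) were lower there. Hypoglossal samples had Gfap (0.92) and the oligodendrocyte marker Mbp (0.72) higher and Aqp4 lower (−0.66). In facial samples the vessel marker Cldn5 (0.80) and the astrocyte marker Gja1 (0.92) were higher and Slc1a2 was lower (−0.40). After quantile normalization the ocular split was 2 higher and 3 lower.

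Of the 52 population calls, 37 held in every setting and with each mouse left out. Those that did not were mostly small differences: Kif1b in lumbar, ocular and red nucleus neurons, Kif5a in lumbar and ocular, Kif21b in hypoglossal and vagus, Kif9 in ocular and red nucleus, Klc4 and Kif19a in vagus, Dctn5 in ocular, Dync1i1 in hypoglossal, and Kif3b and Kif24 in red nucleus. Kif24 in the red nucleus read 11.8 RPKM in mouse 30 and at most 0.764 in the other 10 mice, and without mouse 30 its difference went from 0.42 to 0.12 (limma adjusted p = 0.546). For the others, leaving out the mice concerned gave adjusted p up to 0.251, that of Kif21b in hypoglossal neurons.

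**Figure D2:**
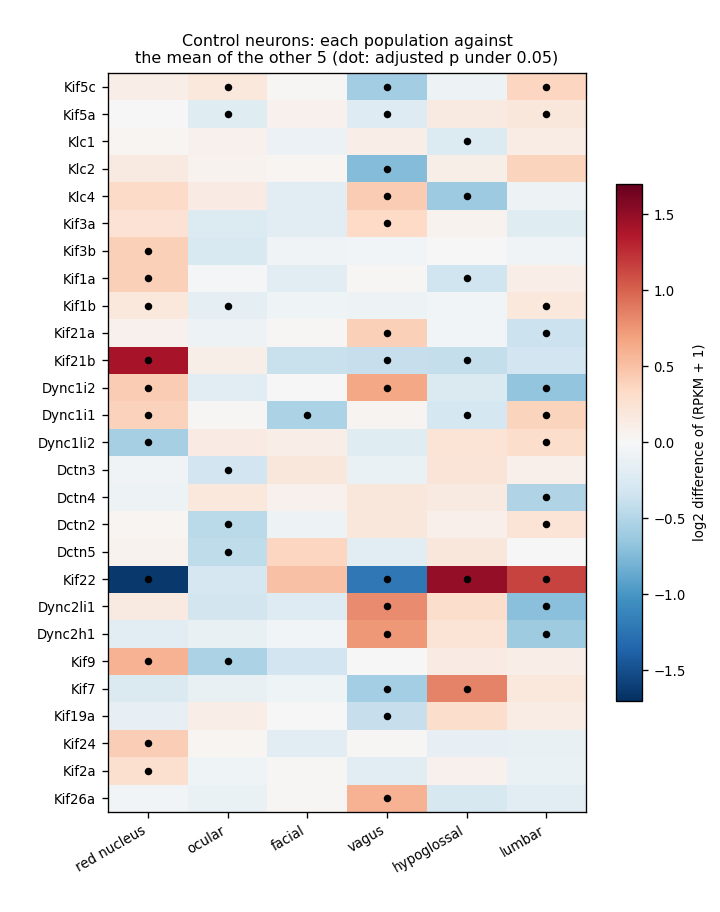
Log2 difference of each population from the mean of the other 5 in controls, for the 27 motor genes past the threshold in at least 1 population; dots mark adjusted p under 0.05. Kif22 is high in hypoglossal and lumbar and low in vagus and red nucleus neurons, and Kif21b is high in the red nucleus.

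The study sets the resistant ocular against the vulnerable lumbar motor neurons. Directly compared in controls, 6 members were higher in lumbar and 2 lower, beside 8.77% and 6.93% of all genes, and after quantile normalization 4 were higher and 3 lower. Of these, Kif22 had the largest difference at 1.19 (SE 0.28, limma adjusted p = 0.00104), with 11.4 to 27.3 RPKM in lumbar (n = 13) and 1.56 to 14.2 in ocular samples (n = 12), which overlapped. Dctn2, the dynamitin subunit, was higher by 0.58 (SE 0.09, adjusted p = 1.8e-06) and its neighbour Kif5a by 0.33 (SE 0.08, adjusted p = 0.00236), with Kif1b at 0.27 (SE 0.07). Dctn4 (−0.58, SE 0.18, adjusted p = 0.0150) and Dync1i2 (−0.41, SE 0.12, adjusted p = 0.0130) were lower in lumbar neurons. Dctn3 (0.34) and Dync1i1 (0.31) also passed, but Dctn3 missed the threshold when any 1 of 10 mice was left out (adjusted p up to 0.106) and Dync1i1 when any 1 of 11 was (up to 0.158). Without mouse 29 or mouse 30 the Dctn4 difference was −0.48 or −0.52 and also missed it (adjusted p = 0.0712 and 0.0542). Among markers of other cells, the astrocyte gene Gfap was higher in lumbar samples by 1.86, the vessel gene Rgs5 by 2.10 and the precursor gene Pdgfra by 0.79, as were the dividing-cell genes Pbk (1.28) and Ccnb1 (1.04). Their part in the motor differences was not tested. Of 53 partner genes tested 8 were higher and 4 lower in lumbar neurons, led by Clstn2, a cargo adaptor of kinesin-1, at 1.95 (SE 0.13), and on the low side by Hook1, a dynein adaptor (−1.36, SE 0.20).

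Between day 2 and day 10, 12 motor genes changed in controls in at least 1 population, making 16 calls in 249 tests. At an unadjusted p under 0.05, 20.1% of member tests passed and 19.6% of all tests. The calls fell as follows, with the shares of all genes higher and lower in parentheses. Lumbar neurons had 3 members higher and 2 lower (4.76% and 7.25%), the red nucleus 2 and 2 (5.72% and 5.42%) and ocular neurons 1 and 2 (4.38% and 3.64%). Facial neurons had 3 and 0 (2.60% and 2.76%), hypoglossal 1 and 0 (2.43% and 2.68%) and vagus 0 and 0 (0.581% and 0.437%). Fitted without the other groups of each population, 9 of the 16 were called; the others were Dync1i1 in hypoglossal, Dync1li2 and Kif22 in facial, Kif13a in ocular, Kif2a in lumbar, and Kif21b and Kif5a in red nucleus neurons.

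Oligodendrocyte markers rose with day in the same samples. At day 2 the summed RPKM of the 6 markers in controls was 16.9 to 46.9 in lumbar, 17.5 to 26.6 in red nucleus, 17.3 to 29.2 in ocular, 24.1 to 42.5 in facial and 30.9 to 92.6 in hypoglossal samples. At day 10 it was 537 to 1176 in lumbar, 322 to 651 in red nucleus, 351 to 503 in ocular, 235 to 275 in facial and 190.6 to 775 in hypoglossal samples. In vagus samples it was 52.7 to 110.3 at day 2 and 41.4 to 86.6 at day 10. No motor was called there, where only 0.581% of all genes were called higher and 0.437% lower. Some markers of other cells changed as well: in lumbar samples the astrocyte genes Aqp4 (1.21) and Slc1a2 (1.28) rose and Slc1a3 (−1.46) fell, Gja1 (−1.40) fell in facial and Slc1a3 (−1.20) in hypoglossal samples, and the microglia gene C1qb (2.66) rose in the red nucleus. The part of these cells in the motor changes was not tested.

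In lumbar neurons Klc1, at chr12:111758849-111807844, read 366, 393, 432 and 455 RPKM in the 4 control mice of day 2 and 594, 632, 645 and 653 in those of day 10. All day 10 values lay above all day 2 values, and the difference was 0.62 (SE 0.08, limma adjusted p = 5.1e-06). Kif21a rose from 15.9, 18.0, 21.3 and 27.5 to 27.2, 33.5, 38.0 and 38.6 RPKM (0.72, SE 0.16, adjusted p = 0.00273), with 1 day 10 mouse just under the highest day 2 mouse. Kif3b, the kinesin-2 partner of Kif3a, fell from 13.2, 15.1, 16.2 and 18.5 to 5.66, 6.54, 8.97 and 9.07 RPKM (−0.98, SE 0.24, adjusted p = 0.00562), without overlap. Kif2a also fell (−0.39, SE 0.12, adjusted p = 0.0287), from 44.95 to 48.4 RPKM at day 2 to 31.8 to 40.8 at day 10. The median over all genes in this comparison was −0.10, and quantile normalization, which moved it by 0.10, put Kif2a at −0.33 (adjusted p = 0.0677) and left 3 higher and 1 lower. Kif2a also missed the threshold without any 1 of mice 20, 28, 244, 247, 252 and 253 (adjusted p up to 0.0968).

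Kif22 rose with day in lumbar and facial neurons. Lumbar control mice read 11.4, 11.6, 13.5 and 16.2 RPKM at day 2 and 17.8, 20.2, 22.3 and 27.3 at day 10 (0.69, SE 0.17, limma adjusted p = 0.0062). Facial control mice read 2.08, 3.34, 5.73, 12.7 and 13.3 at day 2 and 20.5, 20.7, 22.8 and 23.1 at day 10 (1.69, SE 0.42, adjusted p = 0.0142). Neither pair of groups overlapped. The facial value missed the threshold with only the groups compared (1.69, adjusted p = 0.0997). Of the other mitotic kinesins, 5 were tested in lumbar and 4 in facial neurons, and none passed; Kif11, Kif14, Kif18b, Kif20b and Kif2b were too low to be tested in either. The summed RPKM of the other 11 in lumbar controls was 3.04 to 4.88 at day 2 and 1.13 to 3.86 at day 10, with no test. Of the 16 dividing-cell genes only Top2a and Pbk were called in lumbar neurons, both lower (−1.57 and −1.80), beside 7.25% of all genes lower. The part of dividing cells in the Kif22 change was not tested.

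Dynein chains shifted in the red nucleus. Dync1i2, at chr2:71211706-71263303, read 240.7, 241.4, 249 and 269.9 RPKM in the day 2 control mice and 76.2, 76.3, 84.8 and 171.9 at day 10 (−1.37, SE 0.23, limma adjusted p = 0.000408). Dync1li2 went the other way, from 18.0, 24.1, 24.6 and 29.6 to 48.9, 55.5, 55.8 and 68.8 RPKM (1.23, SE 0.20, adjusted p = 0.000336). Both pairs of groups were apart, and the shallowest library, mouse 252, was within the range of the other day 10 mice for Dync1i2 (76.3) and the highest for Dync1li2 (68.8). Kif5a rose from 49.5, 65.1, 68.2 and 73.6 to 90.9, 98.8, 104 and 115.2 RPKM (0.67, SE 0.20, adjusted p = 0.0311) but missed the threshold without mouse 14, 244, 252, 253 or 254 (0.56 to 0.69, adjusted p up to 0.103). Kif21b fell from 17.5, 18.2, 19.3 and 33.5 to 4.71, 6.77, 11.96 and 18.5 RPKM (−1.117, SE 0.35, adjusted p = 0.0400), with overlap, and missed it without mouse 14, 28, 244, 247 or 252 (−1.19 to −0.83, adjusted p up to 0.128).

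Dync1i1, at chr6:5725639-6028039, rose in both facial and hypoglossal neurons. Facial control mice read 29.2, 31.6, 40.4, 43.8 and 45.9 RPKM at day 2 and 58.97, 63.0, 68.5 and 70.3 at day 10 (0.77, SE 0.20, limma adjusted p = 0.0213). Hypoglossal control mice read 31.0, 39.7, 43.0 and 60.8 at day 2 and 54.3, 63.5, 79.95 and 99.03 at day 10 (0.76, SE 0.22, adjusted p = 0.0391). Only the facial groups were apart. Leaving out mouse 26, 240, 247 or 254 put the facial adjusted p above 0.05 (up to 0.0639), and leaving out mouse 28, 240, 244, 247, 252 or 254 did so for the hypoglossal value (up to 0.139). Dync1li2 rose in facial neurons from 31.4, 40.1, 45.2, 45.9 and 53.8 to 59.4, 70.2, 83.6 and 84.5 RPKM (0.78, SE 0.19, adjusted p = 0.0150), and missed the threshold without mouse 253 or 254 (0.71 and 0.72, adjusted p = 0.0610 and 0.0555).

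In ocular neurons Klc2 rose from 10.6, 11.5, 12.04 and 17.5 to 25.1, 26.2, 30.2 and 34.4 RPKM (1.124, SE 0.28, limma adjusted p = 0.0105). Kif13a, a kinesin-3 of endosomes, fell from 3.70, 5.81, 6.19 and 7.45 to 0.777, 1.79, 2.64 and 2.71 RPKM (−1.22, SE 0.32, adjusted p = 0.0155). Kif2a fell from 49.9, 59.6, 61.6 and 62.8 to 29.9, 32.1, 32.4 and 38.7 RPKM (−0.80, SE 0.25, adjusted p = 0.0433). None of these groups overlapped. Some of the day 10 libraries held 1 ocular nucleus alone, while all those of day 2 held both, and the part of this was not tested. Kif13a missed the threshold without mouse 247 (−0.99, adjusted p = 0.0745), and Kif2a without any 1 of 9 mice (14, 26, 196, 199, 244, 247, 252, 253 and 254, adjusted p up to 0.109).

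**Figure D3:**
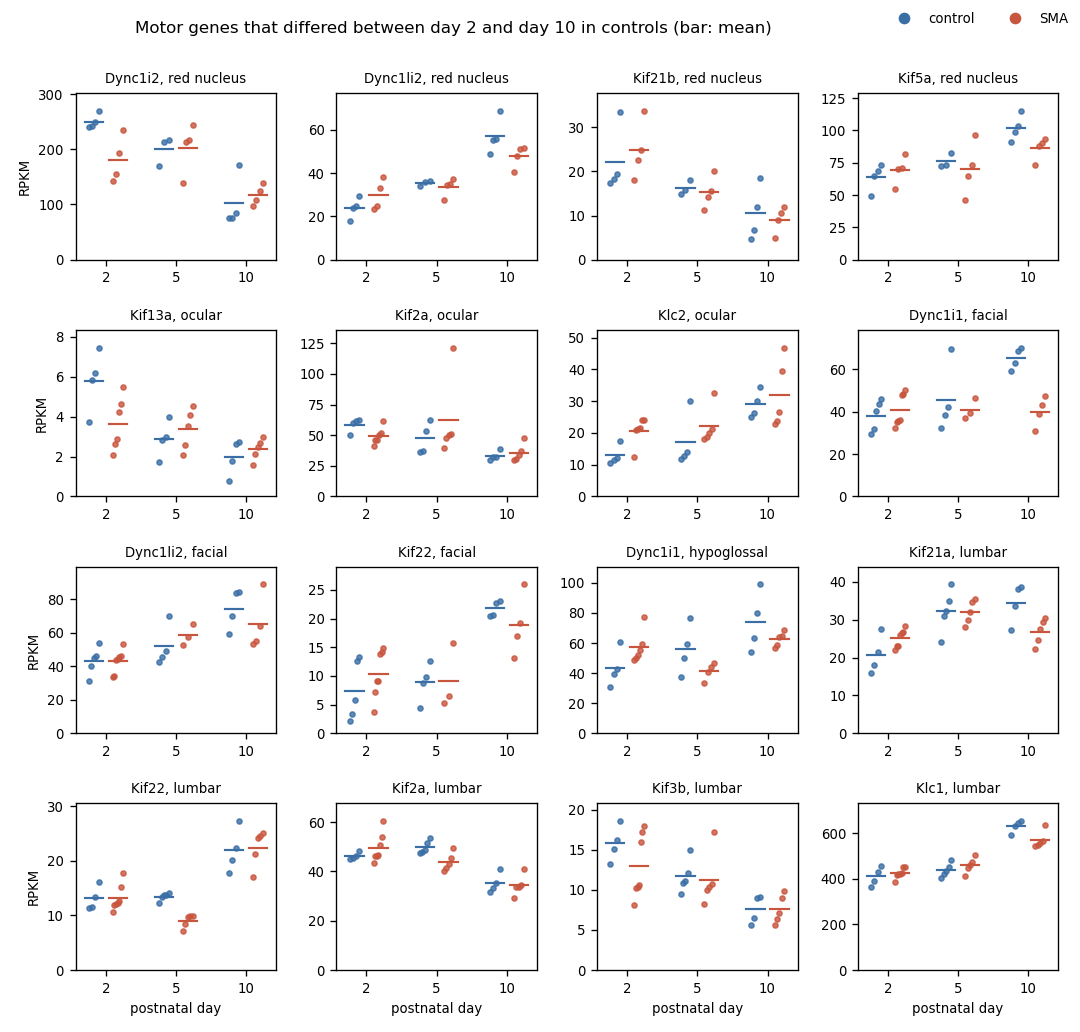
RPKM of every mouse sample (points) and group mean (bars) at postnatal days 2, 5 and 10, controls in blue and SMA in red, for the 16 pairs of motor gene and population that differed between day 2 and day 10 in controls. Klc1 in lumbar neurons sits at 366 to 455 RPKM in day 2 controls and at 594 to 653 in day 10 controls.

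The shares of paralogous subunits in controls are given for each day. Dync1i1 made up 24.8% ± 3.4 (SD, n = 4) of the summed RPKM of the 2 intermediate chains in the red nucleus at day 2 and 49.2% ± 11.8 (SD, n = 4) at day 10. In facial neurons it went from 19.9% ± 2.8 (n = 5) to 39.5% ± 6.0 (n = 4), and in hypoglossal neurons from 22.8% ± 3.7 to 44.4% ± 8.3 (n = 4 each). Lumbar neurons already stood at 43.0% ± 3.1 at day 2 and reached 53.9% ± 3.6 at day 10 (n = 4 each). Dync1li2 made up 10.98% ± 2.7 of the 2 light intermediate chains in the red nucleus at day 2 and 30.7% ± 6.6 at day 10 (n = 4 each). Kif5a made up 35.2% ± 2.8, 40.8% ± 0.8 and 49.1% ± 1.9 of the 3 kinesin-1 heavy chains in the red nucleus at days 2, 5 and 10 (n = 4, 3 and 4), while in lumbar neurons it was 42.2% ± 2.4, 35.4% ± 4.4 and 43.0% ± 2.0 (n = 4, 5 and 4). Per the labels, the 5 lumbar control libraries of day 5 also hold reads deposited earlier. All these shares are given as values, with no test.

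**Figure D4:**
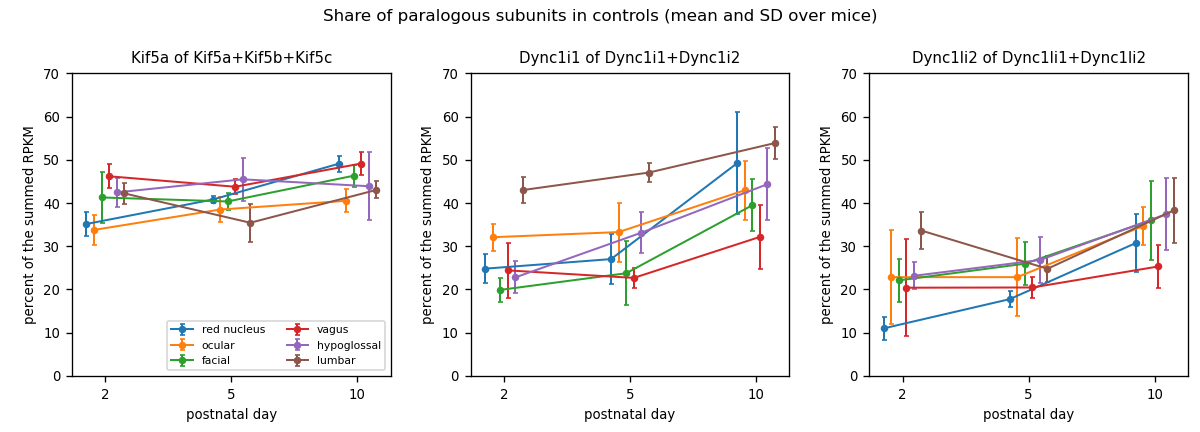
Share of Kif5a among the kinesin-1 heavy chains, of Dync1i1 among the dynein intermediate chains and of Dync1li2 among the light intermediate chains in controls, as percent of summed RPKM at each postnatal day (mean and SD over mice, populations side by side). The mean Dync1i1 share is highest in lumbar neurons at each day.

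Of the 55 partner genes, the dynein light chain gene Dynlt1a fell from day 2 to day 10 in 5 of 6 populations (in lumbar neurons −2.26, SE 0.24, limma adjusted p = 8.9e-08), and Dynlt1f in 4 of 6. Both belong to a cluster of near-identical copies, so reads may be split between them. Dynlt3, another dynein light chain, rose in lumbar (0.86, SE 0.15), ocular (0.72, SE 0.22), red nucleus (0.82, SE 0.26) and vagus neurons (1.37, SE 0.23, adjusted p = 0.00266). Dynll2, also a dynein light chain, rose in lumbar (0.86, SE 0.18), facial and hypoglossal neurons, and Kidins220, which binds kinesin-1, fell in lumbar, ocular, hypoglossal and red nucleus neurons. Snph, which anchors axonal mitochondria, rose in lumbar (0.72, SE 0.16), ocular and red nucleus neurons.

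No motor gene passed the threshold between SMA and control. In 18 comparisons of population and day, 0 of 747 member tests had a limma adjusted p under 0.05, with 39 to 43 members tested in each. At an unadjusted p under 0.05, 48 member tests (6.43%) passed, beside 7.10% of all tests. No other tool was run. Shares of all genes called at days 2, 5 and 10 were 0.0434%, 0.00620% and 0.0124% in the red nucleus, 0.132%, 0.0252% and 0.359% in ocular, 0.0232%, 0.0695% and 0.666% in facial neurons. They were 0.00599% at each day in vagus, 0.0364%, 0.00607% and 0.0728% in hypoglossal and 0.0122%, 0.0488% and 0.775% in lumbar neurons. None of the partner genes or dividing-cell genes tested was called either.

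The intervals show what size of change the data leave room for. Kif5a had 95% intervals of the log2 difference (not adjusted for many tests) within −0.65 to 0.56 over the 18 comparisons, Kif5c within −0.54 to 0.52, Klc1 within −0.78 to 0.43 and Kif1b within −0.46 to 0.79. Dync1i1 stayed within −1.14 to 0.81 and Dync1i2 within −0.97 to 0.76. Dync1h1 (−1.55 to 1.14) and Dctn1 (−2.07 to 2.48) were measured less closely. The median over the transport genes tested ran from −0.09 to 0.08 over the 18 comparisons, and that over all genes tested from −0.01 to 0.13. In the red nucleus at day 10 quantile normalization moved the median of all genes by −0.11.

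The lumbar samples at day 10, the comparison of genotypes with the largest share of all genes called, held the lowest adjusted p of any motor. Kif5c read 101.9, 107.3, 128.2 and 129.9 RPKM in 4 control mice and 78.7, 88.7, 93.6, 93.95 and 108 in 5 SMA mice, with overlap (−0.33, SE 0.10, 95% interval −0.54 to −0.12, limma adjusted p = 0.155). Its sister chain Kif5a read 97.6, 103, 105.9 and 114 in controls and 74.9, 78.4, 85.9, 88.9 and 88.9 in SMA mice (−0.33, SE 0.11, adjusted p = 0.198). Kif3a read 39.2, 44.7, 45.4 and 51.3 in controls and 29.5, 31.3, 32.5, 33.7 and 33.8 in SMA mice (−0.47, SE 0.17, adjusted p = 0.228). Dync2h1 lay on the other side, with 1.43, 1.76, 1.97 and 2.13 in controls and 2.38, 2.66, 3.20, 4.98 and 5.16 in SMA mice (0.69, SE 0.25, adjusted p = 0.248). In the same samples Kif5b (0.15, SE 0.27), Dync1h1 (−0.05, SE 0.19) and Dctn1 (0.19, SE 0.41) had intervals that included 0. Summed oligodendrocyte markers were 537 to 1176 in these controls and 673 to 993 in the SMA mice.

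Other genotype values with a low unadjusted p, chosen after their values were seen as were those above, lay in several populations and in both directions. At day 10 facial Dync1i1 read 58.97 to 70.3 RPKM in 4 controls and 30.8 to 47.3 in 4 SMA mice (−0.70, SE 0.21, limma adjusted p = 0.189). In these samples Gfap was higher in SMA mice by 2.81, the only 1 of the 6 astrocyte markers called. At day 5 ocular Kif16b, a kinesin-3 of early endosomes, read 2.87 to 6.45 in 4 controls and 0.573 to 1.59 in 5 SMA mice (−1.20, SE 0.30, adjusted p = 0.293). Some of these control libraries held 1 ocular nucleus alone, while all the SMA libraries held both, and the part of this was not tested. Kif22 read 12.2 to 14.1 in 5 lumbar controls at day 5 and 7.13 to 9.90 in 5 SMA mice (−0.53, SE 0.15, adjusted p = 0.262), and 1.79 to 6.06 in 4 vagus controls at day 10 and 8.07 to 11.02 in 5 SMA mice (1.25, SE 0.36, adjusted p = 0.870). The 2 Kif22 differences had opposite signs, and the 5 lumbar controls of day 5 also hold reads deposited earlier. Hypoglossal Dctn4 read 194.1 to 262 in 4 controls at day 2 and 99.3 to 162.8 in 6 SMA mice (−0.75, SE 0.21, adjusted p = 0.218), and hypoglossal Dctn1 read 5.83 to 34.7 in 4 controls at day 5 and 35.7 to 67.1 in 4 SMA mice (1.24, SE 0.42, adjusted p = 0.712).

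**Figure D5:**
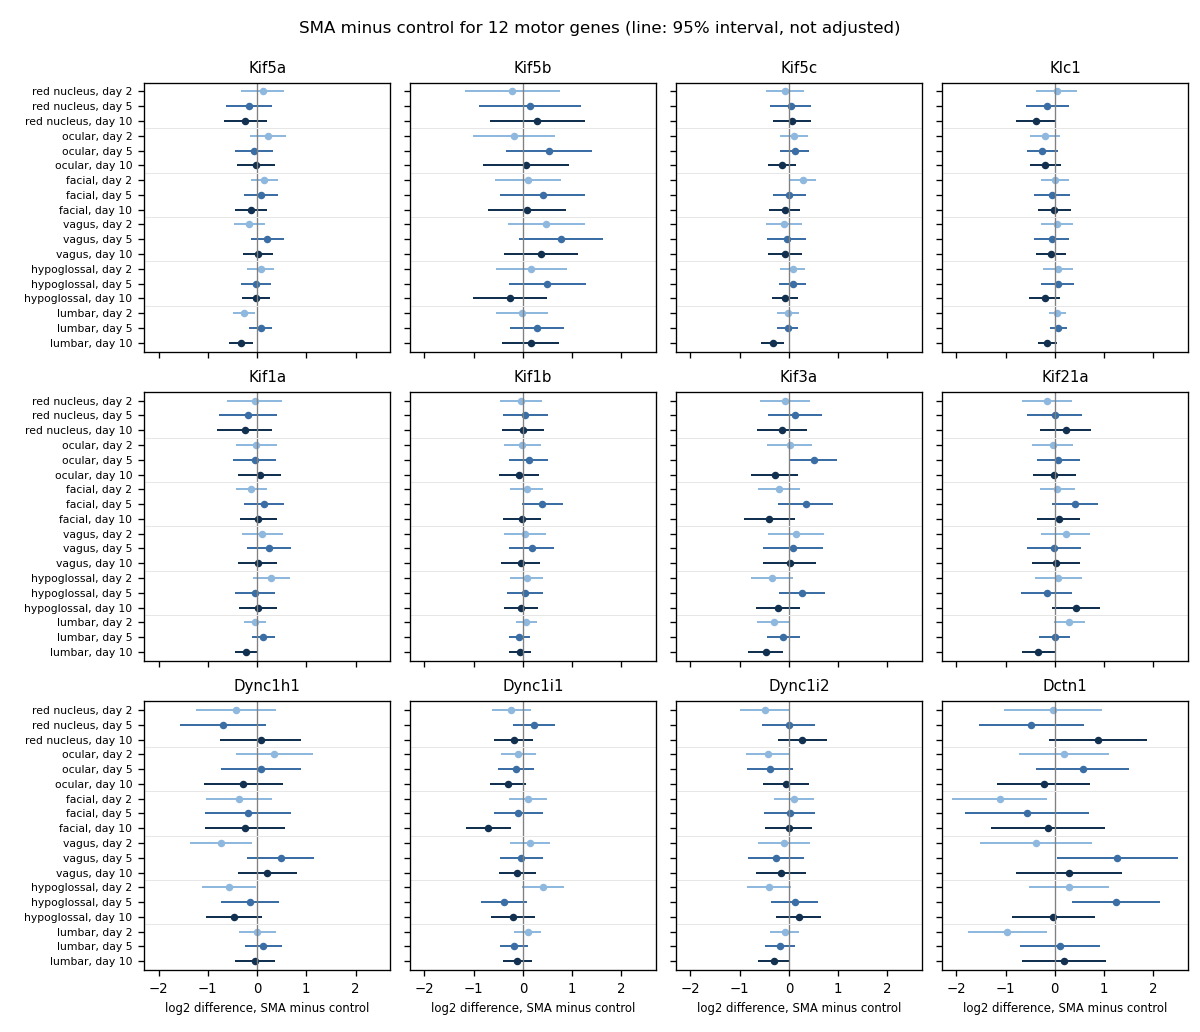
Log2 difference between SMA and control for 12 motor genes in each population at each day (points) with 95% intervals not adjusted for multiple tests (lines); darker blue is a later day. No point passed the threshold after adjustment, and the intervals of Kif5b, Dync1h1 and Dctn1 are wider than those of Kif5a, Kif5c and Klc1.

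Whether a genotype difference changed with day was asked by 1 test per population. No motor passed it in 249 tests, of which 11 (4.42%, beside 6.48% of all tests) had an unadjusted p under 0.05, and all genes were called at 0% in red nucleus, vagus, hypoglossal and lumbar neurons, 0.101% in ocular and 0.104% in facial neurons. Nor did the genotype difference itself differ between lumbar and ocular neurons for any motor: 0 of 141 tests passed the limma threshold and 7 (4.96%, beside 6.85%) had an unadjusted p under 0.05, where all genes were called at 0.00553%, 0% and 0% at days 2, 5 and 10. Kif16b at day 5 came nearest (1.96, SE 0.49, adjusted p = 0.241). With mouse 46 left out it was 2.34 (adjusted p = 0.0490).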

How the data were processed

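Motor genes were taken by symbol from a table of RPKM values deposited by the authors for 168 libraries, each made from laser-cut neurons by Smart-seq2 per the labels' protocols. The submitters' processing notes name STAR 2.4.1c, mm10 and hg19. The counting program, annotation and use of strand are not given in the sources used here. Per the labels, 5 lumbar control libraries of day 5 also hold reads deposited earlier. The members and gene lists were chosen with earlier results of these data known.

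Libraries of the same mouse and population were averaged (8 of 160 samples). Values were log2(RPKM + 1), so folds of low genes are understated. Genes with at least 1 RPKM in as many samples as the smallest group were tested with limma 3.58.1 (trend, R 4.3.3) and Benjamini-Hochberg adjustment within each comparison at 0.05. SMA was compared with control and day 10 with day 2 within each population. Populations were compared in controls with the mouse as a block, because the same animals gave several populations (correlation within a mouse 0.0339, and 0.0158 in the lumbar and ocular fit of genotype). The fits were also run on simulated data with log2 differences of 1 or 2 in genes above 10 RPKM and no mouse effect. Those runs do not speak to smaller differences or lower genes. Depth was recovered from the steps between low RPKM values of 17340 genes with 1 transcript (65.4% to 78.8% of values whole within 0.02 reads), too few for a count test. Intervals cover the spread between mice, and limits on low values cover counting error only. The rule for named genes took all members past the threshold between genotypes, the 12 highest in controls, up to 3 members each way past the threshold per population or day comparison, and a set list of transport and mitotic motors. Other members and partner genes are named where a count or value is singled out, chosen after their values were seen. Coordinates are from GENCODE M21 (GRCm38). Alternatives were a pseudocount of 0.1, no filter, quantile normalization, each library as a sample, only the groups compared, no mouse block and each mouse left out.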

Additional observations from a re-analysis of the deposited data

Results flagged for a closer look

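Single samples that stood far from the rest were looked for in 120 sets of 4 to 7 mice. Each set was 1 gene, or the summed transport or mitotic list, in 1 group of population, genotype and day. The genes were those called between days or shown above for a low unadjusted p between genotypes, in the groups compared. Chance alone would give about 1 in 20 in sets not chosen by their values, so this rate is only a guide here. There were 5 found, each in a group of 4. In red nucleus controls of day 10, Dync1i2 was 171.9 RPKM in mouse 247 and at most 84.8 in the other 3 mice. In red nucleus controls of day 2, Kif21b was 33.5 RPKM in mouse 14 and at most 19.3 in the others. In hypoglossal SMA samples of day 5, Dctn1 was 67.1 RPKM in mouse 31 and at most 40.4 in the others. The summed RPKM of the transport genes in lumbar controls of day 10 was 2403 in mouse 253 and at least 2634 in the others. The summed RPKM of the mitotic kinesins in red nucleus SMA samples of day 10 was 11.8 in mouse 249 and at most 6.76 in the others.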

How the results depend on the processing

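Of the 76 motor gene differences named from the population, lumbar against ocular and day comparisons, none changed sign in any setting run, and 49 passed the threshold in every one. The number called between day 2 and day 10 went from 16 to 9 with only the groups compared, and ran from 11 to 18 with each mouse left out. The number called between lumbar and ocular neurons went from 8 to 5 without mouse 29 (5 to 8 over all mice), and that between populations from 52 to between 43 and 52. The genotype difference between lumbar and ocular neurons gave 0 calls, or 1 without mouse 46 (0 to 1 over all mice). SMA against control and its change with day gave 0 calls in every setting run. Without the mouse block the counts were 48 between populations, 6 between lumbar and ocular neurons and 0 for the genotype difference between them. No paired analysis was possible for SMA against control because they share no mouse and the labels used here give no litter. Leaving out the shallowest library, an alternative chosen after seeing the data, gave 56 population and 14 day calls. Depth limits low values, since 3 reads of Kif11 amount to 1.18 RPKM in that library.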
